A study of Mus musculus with 2 samples.

Results

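Semaphorins are guidance proteins, and plexins and neuropilins are their receptors. The genes described here are all those in the count tables whose symbol is Sema, Plxna, Plxnb, Plxnc or Plxnd followed by a number, together with Nrp1 and Nrp2. That rule gave 31 of 31253 genes, namely 20 semaphorins, 9 plexins and 2 neuropilins, and left out 3 antisense transcripts of Plxna4. The genes were followed through lumbar L4-5 dorsal root ganglia of wild-type mice aged 8 weeks in the acetone-ether-water (AEW) group, in which solvent and water treatment dries the skin. Both libraries, called replicates 1 and 2, belong to that group, so every comparison is between cell classes within the same libraries and none is with untreated mice. The labels do not say whether the replicates come from separate animals, how many animals were pooled or which sex they were. The p-values measure how far differences between classes varied between these libraries, a spread that may be technical. It was estimated over all fitted classes together. A shift shared by all classes of a library was a term of the fit and is not part of it.

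Class 3 semaphorins are secreted and mostly bind a neuropilin, which lends them to an A-type plexin or to plexin D1 for signalling across the membrane. Classes 4, 5 and 6 span the membrane, and semaphorin 7A is held by a lipid anchor. Plexin B1 is a receptor for semaphorin 4D, plexin C1 for semaphorin 7A, plexin D1 for semaphorin 3E without a neuropilin, and plexins A2 and A4 for class 6 semaphorins. In developing ganglia these proteins steer sensory axons and vessels, and in adult nerve they remain known as cues between axons, Schwann cells and endothelium. Neuropilins also serve as co-receptors for vascular endothelial growth factors.

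The replicates held 113251556 and 102347251 unique molecular identifiers (UMIs, each a counted RNA molecule), with medians of 4991 and 4102.5 UMIs in the 7774 and 10270 cells kept. Although the labels name neurons as the cell type, marker genes assigned 561 and 723 cells with at least 20000 UMIs to neurons. Satellite glia, which wrap neuron cell bodies, made up 2253 and 2525 cells, and myelinating Schwann cells 1014 and 521. Non-myelinating Schwann cells, which ensheath thin axons, made up 284 and 241 cells, endothelial cells 318 and 675, pericytes 183 and 236, and vascular smooth muscle cells 68 and 91. Another 1524 and 2994 cells met no gate or more than 1. A further 931 and 1174 barcodes carried neuron markers on fewer than 2000 UMIs and were set aside as shallow, and those between 2000 and 20000 UMIs count among the cells without a class. A level is given throughout as UMIs of the gene per 10000 UMIs of all cells of the class in 1 library, replicate 1 first. It does not tell more cells with a gene apart from more of its RNA per cell, and deep cells weigh more in it.

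Neurons were divided by markers into 8 classes. NP1 (136 and 152 cells) are non-peptidergic nociceptors with Mrgprd. NP2 (34 and 30) carry the itch receptor Mrgpra3, and NP3 (32 and 31) the peptides Nppb and Sst. PEP-C (139 and 189) are peptidergic C-fibre nociceptors and PEP-A (37 and 27) peptidergic A-delta nociceptors. TH (45 and 114) are C-fibre touch receptors, TRPM8 (22 and 24) sense cold, and NF (35 and 63) are large neurons with myelinated A fibres. Of the 45 neuron-class markers measured, 41 were highest in their own class by the mean of both libraries. The classes were gated on these same markers, so that count is no independent check of them. The exceptions were Mrgprb5 of NP2, Prokr2 of PEP-C, Necab2 of NF and Calca of PEP-A, the last at 87.6 and 161 in PEP-A and 150 and 194 in PEP-C. PEP-A was the least secure class. When neurons were grouped by clusters of expression instead, 70.3% of its cells kept their class, against 84.8% to 95% in the others. Its marker Kit was at 1.6 and 1.77 in PEP-A and 1.53 and 1.03 in PEP-C.

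Markers of one class also appeared in others. The 8 neuron markers summed to 163 and 169 UMIs per 10000 in neurons. They summed to 7.99% and 10.9% of that level in satellite glia, 17.1% and 25.8% in myelinating Schwann cells, 23.0% and 28.9% in non-myelinating Schwann cells, 6.86% and 10.8% in endothelial cells, and 21.2% and 23.4% in pericytes. The 5 satellite glia markers reached 10.9% and 14.1% of their own level in non-myelinating Schwann cells and 1.78% and 1.85% in neurons. These shares are set beside the results they touch.

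Of the 31 genes, 18 reached 0.5 UMIs per 10000 in both libraries in at least 1 neuron, glial or vascular class and are described below one by one. Among 7 such classes, 8 genes were highest in endothelial cells, 6 in non-myelinating Schwann cells, 5 in myelinating Schwann cells, 4 in neurons, 4 in pericytes, 3 in satellite glia and 1 in smooth muscle, by the mean of both libraries. The highest class was the same in both libraries for 24 of the 31. Statements on these classes leave out fibroblasts, perineurial and immune cells and the shallow barcodes, some of which held more of a gene.

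**Figure D1:**
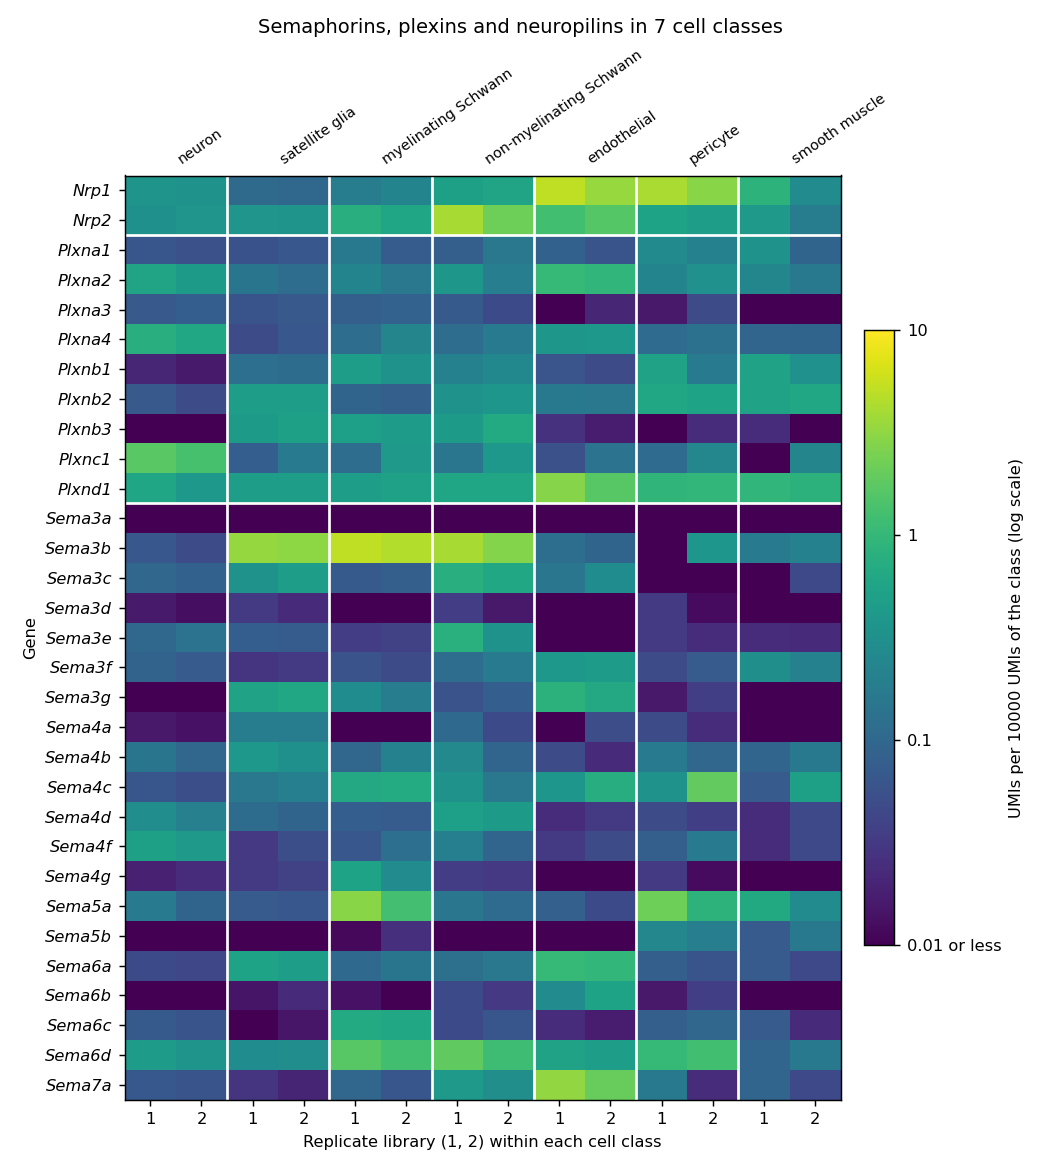
Levels of all 31 genes (rows) in 7 cell classes, with 1 column for each library, as UMIs per 10000 UMIs of the class on a log colour scale that ends at 0.01. Nrp1 is brightest in endothelial cells (5.16 and 3.42) and pericytes (4.21 and 2.89), Sema3b in the 3 glial classes, and Plxnc1 in neurons (1.7 and 1.34).

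The neuropilins marked different cells. Nrp1, which binds semaphorin 3A and vascular endothelial growth factor, stood at 5.16 and 3.42 in endothelial cells and 4.21 and 2.89 in pericytes. It was at 0.865 and 0.279 in smooth muscle, 0.513 and 0.572 in non-myelinating Schwann cells, 0.356 and 0.352 in neurons, 0.189 and 0.226 in myelinating Schwann cells and 0.108 and 0.104 in satellite glia. Every endothelial and pericyte value lay above every value of the other 5 classes, and the endothelial and pericyte values overlapped. Nrp2, which prefers semaphorins 3C, 3F and 3G, was instead highest in non-myelinating Schwann cells at 4.02 and 2.19, followed among the 7 classes by endothelial cells at 1.24 and 1.62. Fibroblasts, outside these classes, held 2.21 and 1.98. Myelinating Schwann cells held 0.773 and 0.597, pericytes 0.548 and 0.484, satellite glia 0.371 and 0.353, neurons 0.321 and 0.367 and smooth muscle 0.408 and 0.186. Both libraries placed non-myelinating Schwann cells first, although the level in replicate 1 was well above that in replicate 2. On build mm10, Nrp1 (ENSMUSG00000025810) lies on chromosome 8 from 128358604 to 128503363 on the plus strand, and Nrp2 (ENSMUSG00000025969) lies on chromosome 1 from 62703285 to 62818695 on the plus strand.

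Plexins of the A type carry the signal of most class 3 semaphorins. Plxna4 was highest in neurons at 0.763 and 0.626, with 0.389 and 0.393 in endothelial cells. In satellite glia (0.0492 and 0.0651), non-myelinating Schwann cells (0.117 and 0.175) and pericytes (0.113 and 0.133) it was close to what the neuron-marker share alone would give, 0.0609 and 0.0683, 0.176 and 0.181 and 0.162 and 0.147. The endothelial level was above such a share, 0.0523 and 0.0677. Plxna2 was at 1.03 and 0.943 in endothelial cells and 0.565 and 0.427 in neurons, and between 0.118 and 0.385 in the other 5 classes. Plxna1 and Plxna3 were low, at 0.0551 to 0.336 and 0 to 0.088 over the 7 classes.

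The B-type plexins, of which plexins B1 and B2 are receptors of class 4 semaphorins, were each highest in a glial or mural class among the 7. Plxnb2 stood at 0.629 and 0.544 in pericytes, 0.528 and 0.628 in smooth muscle and 0.469 and 0.464 in satellite glia, against 0.0687 and 0.0504 in neurons. Pericytes and smooth muscle overlapped, and satellite glia lay just below both. Macrophages, outside the 7 classes, held more, 0.817 and 0.983. Plxnb3 was at 0.431 and 0.683, 0.491 and 0.453 and 0.427 and 0.502 in non-myelinating Schwann cells, myelinating Schwann cells and satellite glia, and at most 0.0266 in the other 4 classes. Plxnb1 was at 0.482 and 0.352 in myelinating Schwann cells, 0.532 and 0.169 in pericytes and 0.528 and 0.325 in smooth muscle, which overlapped.

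Plxnc1 and Plxnd1, the only plexins of the C and D types, were highest in different classes. Plxnc1, the receptor of semaphorin 7A, was a neuron gene at 1.7 and 1.34, with 11279 and 6354 UMIs behind those values. In the other 6 classes it ranged over 0 to 0.409, and the neuron-marker share alone would give 0.135 and 0.146 in satellite glia, where 0.0779 and 0.175 were measured, and 0.29 and 0.346 in myelinating Schwann cells, where 0.119 and 0.409 were measured. Plxnd1 was highest in endothelial cells at 2.83 and 1.67, then in pericytes at 0.919 and 0.968 and smooth muscle at 0.937 and 0.837. Neurons and the 3 glial classes lay between 0.4 and 0.603, with non-myelinating Schwann cells the highest of these 4 in both libraries. Plxnc1 (ENSMUSG00000074785) lies on chromosome 10 from 94790866 to 94944835 on the minus strand, and Plxnd1 (ENSMUSG00000030123) lies on chromosome 6 from 115954811 to 115995005 on the minus strand.

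Among the secreted semaphorins, Sema3b was highest in the 3 glial classes. Its level was 5.2 and 4.5 in myelinating Schwann cells, 4.06 and 2.81 in non-myelinating Schwann cells and 3.39 and 3.11 in satellite glia. No neuron or vascular class exceeded 0.375, and in neurons it was at 0.066 and 0.0481, where the satellite-marker share alone would give 0.0604 and 0.0574. Sema3c was at 0.758 and 0.635 in non-myelinating Schwann cells and 0.346 and 0.462 in satellite glia, against 0.0698 and 0.0817 in myelinating Schwann cells. Sema3e was also highest in non-myelinating Schwann cells at 0.793 and 0.349, where the libraries differed more than 2-fold, with 0.0995 and 0.139 in neurons. Sema3g was highest in endothelial cells at 0.852 and 0.641 and in satellite glia at 0.537 and 0.616, and at 0.00632 and 0.00528 in neurons. Sema3a, the classic repellent of sensory axons, had 7 and 8 UMIs in all neurons, a level of 0.00105 and 0.00169. In the cold-sensing class TRPM8 it was at 0.0266 and 0.0272, from 4 and 3 UMIs, and its counts were too low to be tested.

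Several membrane semaphorins were highest in Schwann cells. Sema5a stood at 2.95 and 1.26 in myelinating Schwann cells and 2.19 and 0.859 in pericytes, and replicate 1 was higher than replicate 2 by more than 2-fold in both. Sema6c was at 0.675 and 0.635 in myelinating Schwann cells and at most 0.0968 in the other 6 classes. Sema6d was at 1.85 and 1.16 in non-myelinating and 1.68 and 1.22 in myelinating Schwann cells and 1.03 and 1.23 in pericytes, which overlapped. Sema4g was at 0.547 and 0.277 in myelinating Schwann cells and at most 0.0385 elsewhere among the 7 classes. Sema4d was highest in non-myelinating Schwann cells at 0.49 and 0.429, ahead of neurons at 0.298 and 0.203.

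Other membrane semaphorins were highest in endothelial cells or in neurons. Sema7a, the ligand of plexin C1, stood at 3.27 and 2.01 in endothelial cells and at 0.42 and 0.302 in non-myelinating Schwann cells, and ranged over 0.0204 to 0.161 in the other 5 classes. Sema6a was at 1.02 and 0.962 in endothelial cells and 0.557 and 0.485 in satellite glia. Sema4f, a membrane semaphorin found at synapses, was highest in neurons at 0.51 and 0.413, with 0.024 to 0.198 in the other 6 classes. Sema4c, a ligand of plexin B2, was at 0.65 and 0.71 in myelinating Schwann cells and 0.375 and 0.735 in endothelial cells, but its pericyte level of 0.339 and 1.9 differed so much between libraries that its place in the order was not stable.

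**Figure D2:**
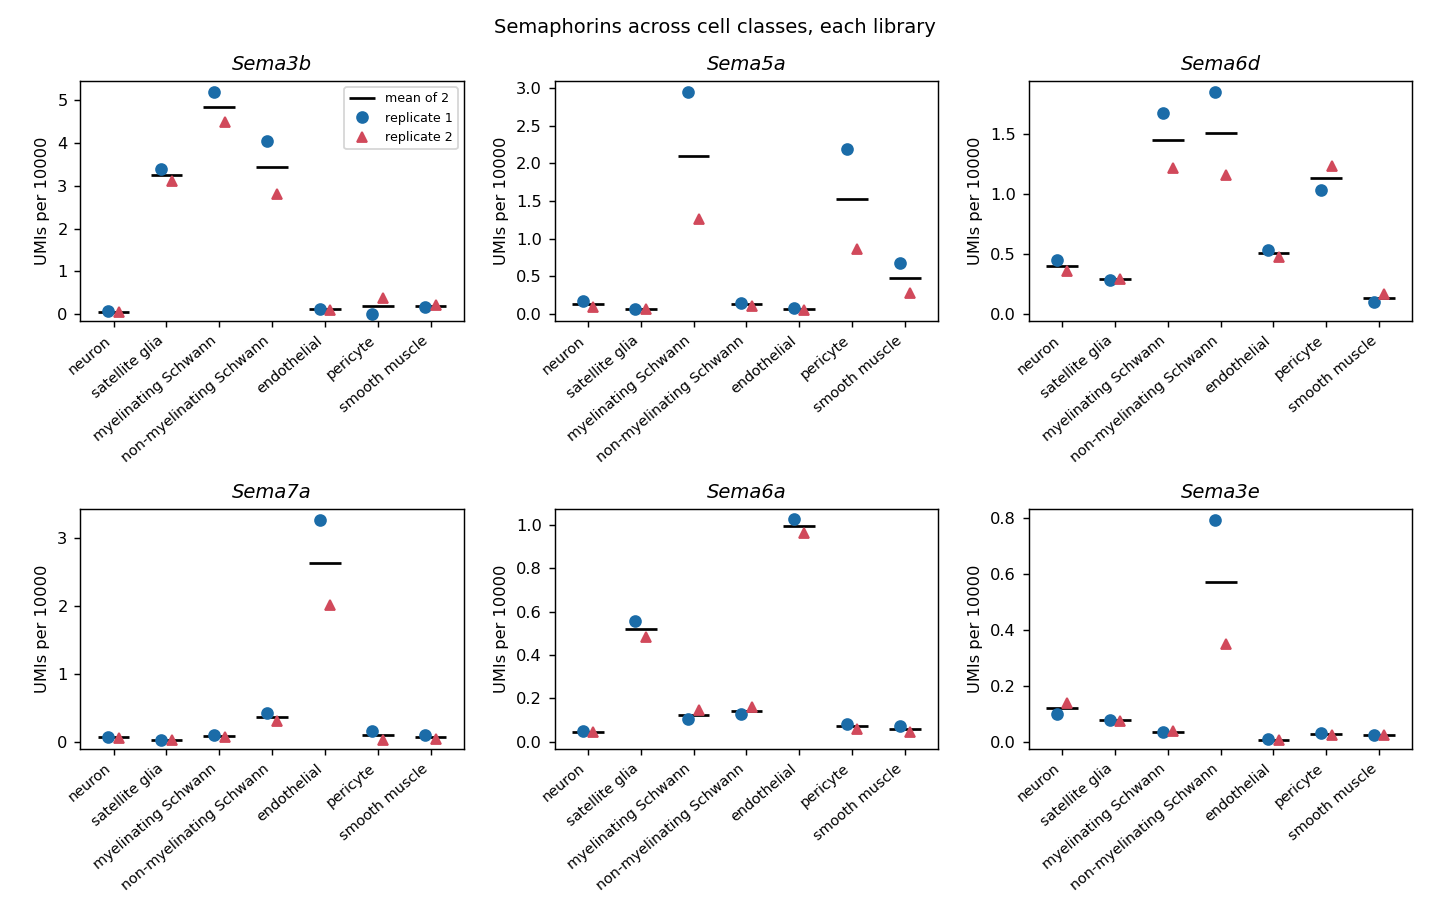
Levels of 6 semaphorins in 7 cell classes, as UMIs per 10000 UMIs of the class on linear axes, with a circle for replicate 1, a triangle for replicate 2 and a line at their mean. Sema3b is high in the 3 glial classes (2.81 to 5.2) and Sema7a in endothelial cells (3.27 and 2.01), while Sema5a shows a wide gap between libraries in myelinating Schwann cells.

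Plxnc1 and Sema7a encode a receptor and its ligand and were highest in different classes, neurons and endothelium, so the sequence around the start of each gene is shown. Both come from RefSeq on build GRCm38.p6, run 5′ to 3′ in the direction of transcription and cover 250 bases before to 50 bases after the start. Capitals mark each GGGCGG on either strand, known as the GC box.
Plxnc1 lies at chr10:94944796-94945095 (minus strand) and Sema7a at chr9:57939862-57940161 (plus strand).
Plxnc1: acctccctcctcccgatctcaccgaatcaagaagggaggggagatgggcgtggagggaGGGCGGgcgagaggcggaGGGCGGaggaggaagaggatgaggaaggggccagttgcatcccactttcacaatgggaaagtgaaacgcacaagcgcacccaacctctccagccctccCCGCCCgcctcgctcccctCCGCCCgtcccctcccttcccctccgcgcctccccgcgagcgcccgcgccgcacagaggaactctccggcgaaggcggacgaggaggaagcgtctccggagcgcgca
Sema7a: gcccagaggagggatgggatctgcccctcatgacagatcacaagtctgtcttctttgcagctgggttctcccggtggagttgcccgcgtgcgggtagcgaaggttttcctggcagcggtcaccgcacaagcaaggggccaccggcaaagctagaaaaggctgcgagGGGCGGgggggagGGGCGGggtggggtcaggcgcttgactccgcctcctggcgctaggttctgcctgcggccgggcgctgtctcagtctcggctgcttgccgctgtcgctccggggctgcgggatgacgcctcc
The Plxnc1 window held 4 such matches and the Sema7a window 2, and 35.7% of the 32851 windows of the same length in the table held at least 1. Of the 37 windows that belong to the semaphorin, plexin and neuropilin genes, 27 held at least 1, so the GC box is not particular to this pair. CG pairs numbered 30 and 23, against a median of 7 over all windows. Neither window held the TATA box TATAAA on either strand, which 13.6% of all windows held. Neither held the RUNX motif TGTGGT, which 16.8% held. The table had a window for 26 of the 31 genes.

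The first comparison asked how neurons differ from their glia. Relative to the mean of satellite glia and both Schwann classes, 6 of 29 tested members were higher and 16 lower (75.9% called), against 64.8% of all 12583 genes tested, 34.6% higher and 30.2% lower, each with edgeR's quasi-likelihood test at an adjusted p under 0.05. The median log2 difference was −0.76 for the members and 0.10 for all genes. Plxnc1 was higher in neurons by 3.09 ± 0.28 (SE, adjusted p = 1.1e-09) on the log2 scale, at 1.7 and 1.34 against 0.116 and 0.327 UMIs per 10000, the glial mean. Plxna4 was higher by 2.69 ± 0.19 (SE, adjusted p = 4.89e-11) and Sema4f by 2.51 ± 0.25 (SE, adjusted p = 7.62e-09). The neuron-marker share would put Plxnc1 at 0.39 and 0.388 and Sema4f at 0.117 and 0.12 in non-myelinating Schwann cells, where 0.152 and 0.397 and 0.198 and 0.0953 were measured, and its part in these 3 differences was not tested.
Plxnb3 (log2 −6.27 ± 0.32), Sema3b (−6.03 ± 0.40) and Sema3g (−5.13 ± 0.41) were lower in neurons, as were Plxnb1, Plxnb2, Sema6a, Nrp2, Sema6d and 8 others. Such a call is against the mean of logs over classes and need not hold against each. Neurons held more Sema6d than satellite glia and overlapped them in Nrp2, at 0.321 and 0.367 against 0.371 and 0.353. Yet neurons held less Nrp1 and Sema4d, both called higher, than non-myelinating Schwann cells. With DESeq2 in place of edgeR, the median of all genes moved by −0.26, 41.3% in place of 53.4% of all calls were higher, and the members split 4 higher and 17 lower, with Nrp1 and Sema4d losing their calls.
Of 48 co-receptors and signalling partners on a list of the pathway, 16 of 48 were higher and 18 lower. Among the higher ones were Crmp1 (2.65 ± 0.21), a collapsin response mediator, and the adhesion gene Cntn2 (2.45 ± 0.17), and the integrin Itga1 was among the lower ones (−3.27 ± 0.31).

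Satellite glia differed from Schwann cells in ligands and receptors alike. Relative to the mean of both Schwann classes, 6 of 29 tested members were higher and 11 lower (58.6% called), against 26.2% of all 12583 genes tested, 14.4% higher and 11.8% lower. Sema6a was higher in satellite glia by 2.25 ± 0.20 (SE, adjusted p = 8.01e-09), at 0.557 and 0.485 against 0.117 and 0.152 UMIs per 10000. Sema3g, Plxnb2, Sema4b and Sema4a were higher as well, by log2 2.43 ± 0.26, 1.62 ± 0.19, 1.43 ± 0.27 and 3.41 ± 0.46. Sema3c was called higher (1.03 ± 0.27) although its mean levels were alike, 0.346 and 0.462 against 0.414 and 0.358, because the fit averages the logs of the Schwann classes and Sema3c is low in one of them. Lower were Sema6c (−3.65 ± 0.54), Sema5a (−2.60 ± 0.30), Sema7a (−2.55 ± 0.28), Sema6d (−2.09 ± 0.21), Nrp2 (−1.76 ± 0.23) and 6 others. In the fit, 54.9% of all calls were higher, and 32.2% with library totals in place of TMM factors, which moved the median of all genes by −0.25 and the members' split to 6 higher and 16 lower.
On the pathway list 10 of 48 were higher and 8 lower, led by Vegfa (3.17 ± 0.24), a growth factor that binds neuropilin 1, at 0.843 and 1.07 in satellite glia.

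Between the Schwann classes the members split by subtype. In myelinating relative to non-myelinating cells, 5 of 29 tested members were higher and 8 lower (44.8% called), against 13.6% of all 12583 genes tested, 6.09% higher and 7.55% lower. Sema5a was higher in myelinating cells by 4.15 ± 0.33 (SE, adjusted p = 3.51e-09), Sema4g by 3.82 ± 0.57 and Sema6c by 3.77 ± 0.49, with 20, 5 and 8 UMIs in non-myelinating cells. Sema3g (2.03 ± 0.47) and Plxnb1 (1.04 ± 0.33) were higher too, the latter without a call under 3 alternatives. Sema3e was lower by log2 −3.85 ± 0.42 (SE, adjusted p = 8.2e-07), at 0.0349 and 0.0377 against 0.793 and 0.349, and Sema3c (−3.05 ± 0.41), Sema4d (−2.44 ± 0.32), Nrp2 (at 0.773 and 0.597 against 4.02 and 2.19), Sema7a (−1.97 ± 0.36), Plxnb2 (−1.86 ± 0.30) and Nrp1 (−1.26 ± 0.30) were lower too, as was Sema4a with 3 UMIs against 12. Sema3b (0.66 ± 0.35, SE, adjusted p = 0.272) and Sema6d (0.11 ± 0.23, SE, adjusted p = 0.857) did not pass. Here 44.6% of all calls were higher, and 33.0% with library totals alone, which moved the median of all genes by −0.17.
On the pathway list 7 of 48 were higher and 7 lower. The adhesion gene Chl1 stood at 8.43 and 4.41 in non-myelinating and 0.158 and 0.233 in myelinating cells (−4.94 ± 0.27), and L1cam, a partner of neuropilin 1, at 3.64 and 2.37 and 0.252 and 0.358 (−3.19 ± 0.26).

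Endothelial cells were then set against the mural cells around them. Relative to the mean of pericytes and smooth muscle, 11 of 29 tested members were higher and 6 lower (58.6% called), against 35.3% of all 12583 genes tested, 19% higher and 16.4% lower. Sema7a was higher in endothelium by 5.11 ± 0.29 (SE, adjusted p = 2.95e-12), at 3.27 and 2.01 against 0.129 and 0.0353 UMIs per 10000. Sema6a (3.98 ± 0.27), Plxna2 (2.09 ± 0.28), Nrp2 (1.94 ± 0.27), Plxna4 (1.89 ± 0.34), Sema3f (1.79 ± 0.32), Nrp1 (1.63 ± 0.20) and Plxnd1 (1.30 ± 0.21) were also higher. Sema3g, Sema6b and Sema3c were higher as well, with 4, 4 and 2 UMIs in the mural classes against 659, 395 and 210 in endothelium. Lower were Sema5b, Sema5a (−3.64 ± 0.29), Plxnb1 (−2.72 ± 0.32), Plxnb2 (−1.81 ± 0.22), Sema4b and Plxna1. Nrp1 was higher than in the mural mean, yet pericytes alone came close to endothelium.
Of the pathway genes 12 of 48 were higher and 13 lower, the former led by the growth factor receptors Kdr and Flt1, the latter of which stood at 29.4 and 23 in endothelial cells.

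Few members were called between pericytes and smooth muscle, yet at a higher share than all genes. In pericytes relative to smooth muscle, 3 of 29 tested members were higher and 1 lower (13.8% called), against 6.53% of all 12583 genes tested, 2.54% higher and 3.99% lower. Nrp1 was higher by 2.42 ± 0.29 (SE, adjusted p = 4.35e-06), at 4.21 and 2.89 against 0.865 and 0.279, and Sema6d by 2.93 ± 0.42 (SE, adjusted p = 4.87e-05), at 1.03 and 1.23 against 0.0961 and 0.163. Sema5a was higher by 1.41 ± 0.31 (SE, adjusted p = 0.0052) at 2.19 and 0.859 against 0.673 and 0.279, but did not pass when cells were taken from clusters or the library term was dropped. Sema3f was lower, with 9 UMIs in pericytes and 22 in smooth muscle. In this comparison 38.9% of all calls were higher, and 54.2% with library totals alone, which moved the median of all genes by 0.22. Smooth muscle held 68 and 91 cells, the fewest of the 7 classes. Of the pathway genes 2 of 48 were higher and 5 lower, the lower ones including Mical3 (−2.57 ± 0.37).

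Against neurons and glia together, endothelial cells stood out in neuropilin 1 and semaphorin 7A. Relative to the mean of neurons, satellite glia and both Schwann classes, 11 of 29 tested members were higher and 12 lower (79.3% called), against 60.2% of all 12583 genes tested, 29.2% higher and 30.9% lower. Sema7a was higher by 4.96 ± 0.16 (SE, adjusted p = 1.5e-17), Sema6b by 4.65 ± 0.28, Nrp1 by 4.05 ± 0.15 (SE, adjusted p = 1.84e-16) and Plxnd1 by 2.10 ± 0.16. Sema3g (3.08 ± 0.19), Sema6a (2.79 ± 0.14) and Sema3f (2.68 ± 0.20) were higher too. Nrp2 was called higher by 1.00 ± 0.19 although the mean levels were 1.24 and 1.62 against 1.37 and 0.877, since non-myelinating Schwann cells alone held more of it. Lower were Sema3e, Sema3b (−3.65 ± 0.38), Plxnb3, Sema4d, Plxnc1 (−1.77 ± 0.38) and 7 others, of which Sema6d lost its call under 5 alternatives. Neurons alone held less Sema3b and Plxnb3 than endothelium. Among the pathway genes 14 of 48 were higher and 19 lower.

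**Figure D3:**
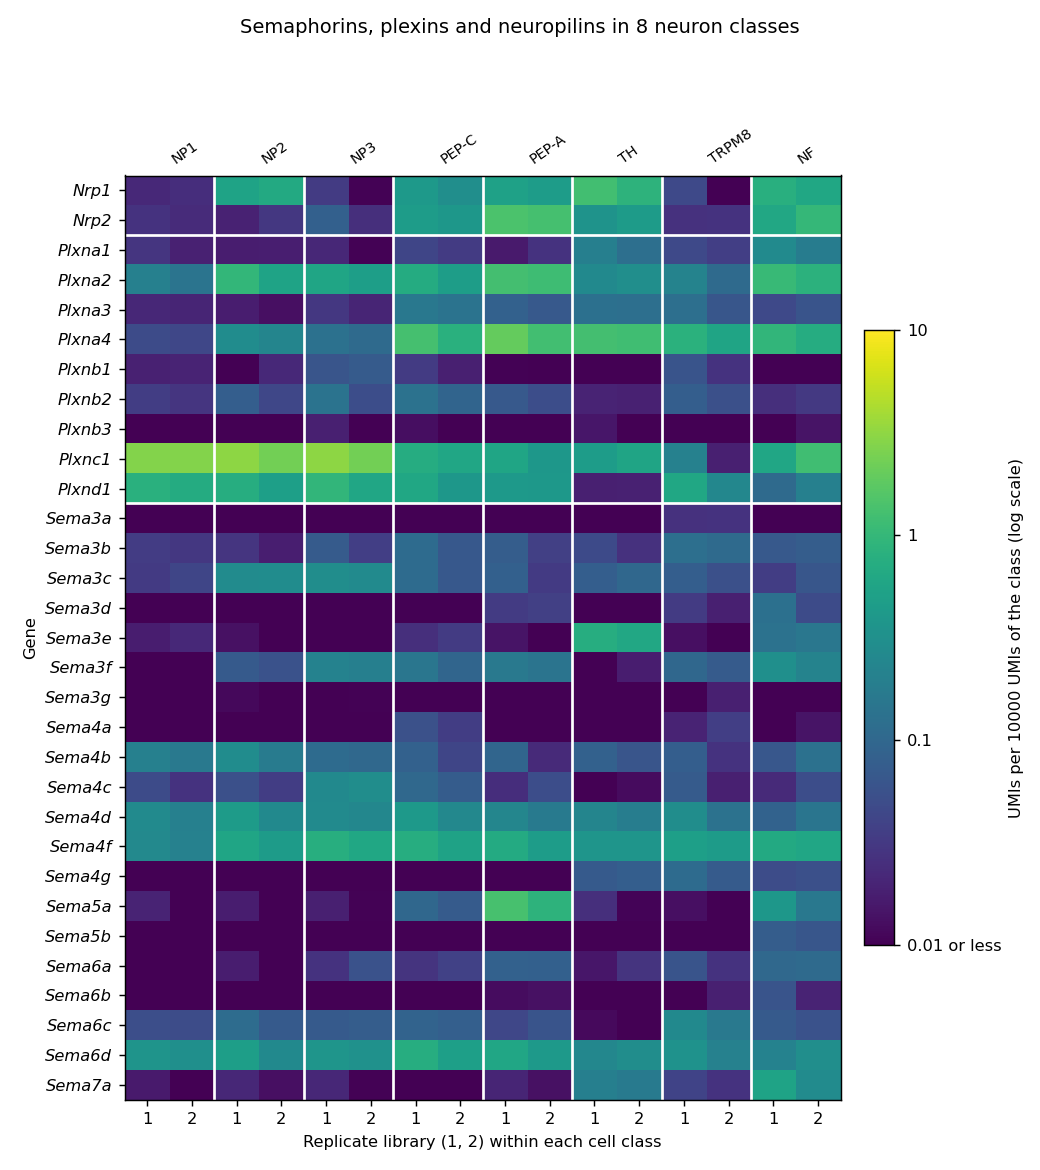
Levels of all 31 genes (rows) in 8 neuron classes, with 1 column for each library, as UMIs per 10000 UMIs of the class on a log colour scale that ends at 0.01. Plxnc1 is brightest in NP1, NP2 and NP3 (2.27 to 3.09), Plxna4 is dark in NP1 (0.0487 and 0.044), and Sema3e is bright in TH (0.748 and 0.636).

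Within the neurons the receptors were spread unequally. Plxnc1 stood at 2.81 and 2.75 in NP1, 3.07 and 2.27 in NP2 and 3.09 and 2.31 in NP3. It was at 0.595 and 1.2 in NF, 0.713 and 0.592 in PEP-C, 0.588 and 0.386 in PEP-A, 0.457 and 0.559 in TH and 0.206 and 0.0182 in TRPM8. All 6 values of the non-peptidergic classes lay above all values of the other 5, while NP1, NP2 and NP3 overlapped. The NF level was higher in replicate 2, where markers of other classes were also higher in NF. Nppb, a marker of NP3, was at 0.00505 and 0.413 and Mrgprd, a marker of NP1, at 0.0555 and 0.192 in NF, and the part of those cells in the NF value was not tested.

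Plxna4 took nearly the reverse pattern. It was at 1.96 and 1.24 in PEP-A, 1.28 and 1.21 in TH, 1.3 and 0.804 in PEP-C, 0.949 and 0.719 in NF and 0.817 and 0.563 in TRPM8. NP2 held 0.291 and 0.229, NP3 0.131 and 0.108 and NP1 0.0487 and 0.044. Every value of the first 5 classes lay above every value of the last 3, and neighbours among the first 5 overlapped. Plxna2 was highest in PEP-A at 1.26 and 1.16 and NF at 1.05 and 0.839, then in NP2 at 0.967 and 0.555, PEP-C at 0.709 and 0.469 and NP3 at 0.577 and 0.478, and lower in TH (0.262 and 0.304), TRPM8 (0.219 and 0.109) and NP1 (0.202 and 0.142). Plxna4 (ENSMUSG00000029765) lies on chromosome 6 from 32144268 to 32588192 on the minus strand.

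Plxnd1 was near 0 in one class. Its level was 0.952 and 0.591 in NP3, 0.796 and 0.704 in NP1, 0.75 and 0.494 in NP2, 0.611 and 0.392 in PEP-C, 0.611 and 0.245 in TRPM8 and 0.422 and 0.4 in PEP-A. The 3 non-peptidergic classes overlapped each other, as did PEP-C, TRPM8 and PEP-A, but both NP1 values lay above every value of the latter 3, and NP2 and NP3 lay above PEP-A. NF held 0.108 and 0.203 and TH 0.0185 and 0.019, the latter from 11 and 14 UMIs.

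The neuropilins divided the neuron classes in different ways. Nrp1 was highest in TH at 1.22 and 0.866, followed by NF (0.785 and 0.616), NP2 (0.556 and 0.67), PEP-A (0.517 and 0.46) and PEP-C (0.405 and 0.307). It was near 0 in TRPM8 (0.0465 and 0), NP1 (0.0223 and 0.025) and NP3 (0.0336 and 0.0103). Nrp2 was highest in PEP-A at 1.42 and 1.31 and NF at 0.636 and 0.986, at 0.45 and 0.384 in PEP-C and 0.346 and 0.448 in TH, and no higher than 0.0824 in NP1, NP2, NP3 and TRPM8. NP2 was thus among the higher classes for Nrp1 and the lower ones for Nrp2, and NP1, NP3 and TRPM8 were low for both.

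**Figure D4:**
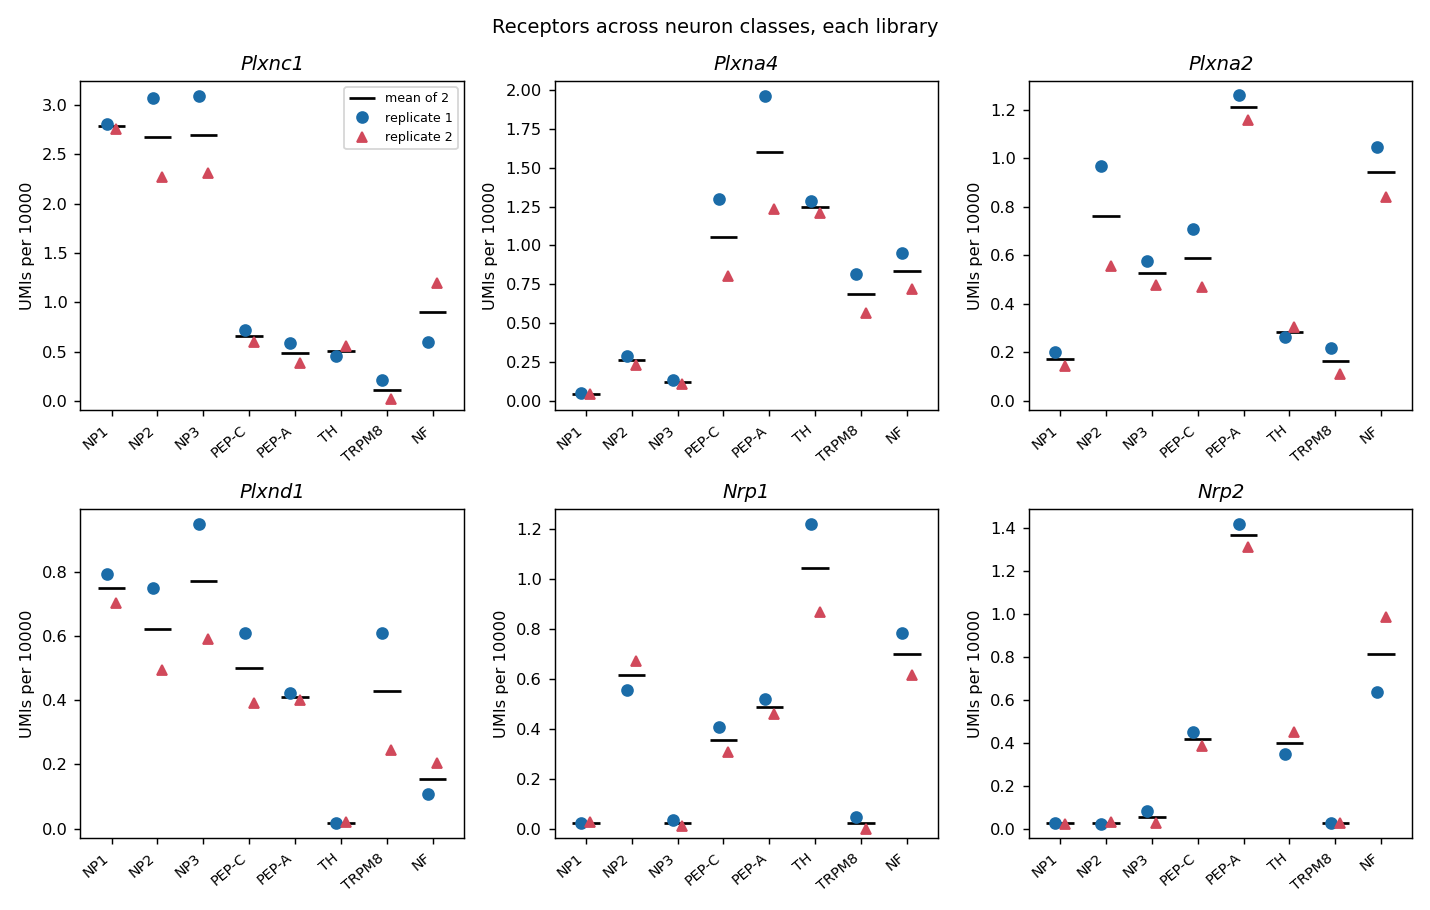
Levels of 6 receptors in 8 neuron classes, as UMIs per 10000 UMIs of the class on linear axes, with a circle for replicate 1, a triangle for replicate 2 and a line at their mean. Plxnc1 is high in NP1, NP2 and NP3, where Plxna4 is at most 0.291, and Plxnd1 is at 0.0185 and 0.019 in TH.

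The semaphorins were also spread unequally over the neuron classes. Sema3e was highest in TH at 0.748 and 0.636, with 0.136 and 0.155 in NF and at most 0.0334 in the other 6 classes. TH was thus the class with the most of this ligand and the least of its receptor Plxnd1. Sema5a was highest in PEP-A at 1.35 and 0.87, with 0.386 and 0.158 in NF and 0.0998 and 0.0718 in PEP-C. Sema7a was at 0.55 and 0.281 in NF and 0.195 and 0.171 in TH and at most 0.0399 elsewhere, so the classes high in its receptor Plxnc1 held little Sema7a. Sema4f and Sema6d were found in all 8 classes, at 0.21 to 0.766 and 0.209 to 0.733. Sema4d, the ligand of plexin B1, was at 0.0883 to 0.44. Plxnb1 itself was at most 0.0719 in any neuron class. Sema3e (ENSMUSG00000063531) lies on chromosome 5 from 14025276 to 14256689 on the plus strand, and Sema7a (ENSMUSG00000038264) lies on chromosome 9 from 57940112 to 57962865 on the plus strand.

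Itch and pain are the subject of the series by its title. Neurons tied to itch (NP2, NP3) were therefore set against peptidergic nociceptors (PEP-C, PEP-A), and 5 of 27 tested members were higher and 10 lower (55.6% called), against 34.3% of all 13028 genes tested, 15.8% higher and 18.5% lower. Plxnc1 was higher in the itch-associated classes by 2.28 ± 0.24 (SE, adjusted p = 1.77e-06), at 3.08 and 2.29 against 0.65 and 0.489 UMIs per 10000. Sema3c (1.95 ± 0.22), Sema4b (1.33 ± 0.28), Sema4c (1.10 ± 0.32) and Plxnd1 (0.66 ± 0.18) were also higher. The call of Sema4c rests on NP3, at 0.262 and 0.298, since NP2 (0.0542 and 0.0353) lay below PEP-C (0.104 and 0.0743). The receptors Nrp2 and Plxna4 were lower, by log2 −4.29 ± 0.23 (SE, adjusted p = 2.94e-09) and −2.83 ± 0.13 (SE, adjusted p = 8.64e-10), at 0.0509 and 0.0283 against 0.935 and 0.848 and 0.211 and 0.169 against 1.63 and 1.02. Sema5a (−4.55 ± 0.29), Plxna3 (−2.35 ± 0.25) and Nrp1 (−1.73 ± 0.25) were lower as well, the first mainly through PEP-A and the last through NP3.
Sema4f did not pass (0.02 ± 0.11, SE, adjusted p = 1), and the call of Plxna2 (−0.37 ± 0.13, SE, adjusted p = 0.0421) was lost under 3 alternatives, with NP2 above PEP-C in mean level. Sema4a, Sema6a, Sema3b and Sema6d were also lower.
On the pathway list 11 of 41 were higher and 12 lower of those tested. Mical1, an oxidase that acts downstream of plexins on actin, was higher by 2.82 ± 0.26, and the actin-regulating kinase gene Limk2 by 1.48 ± 0.13, while Chl1 was lower by log2 −3.56 ± 0.19.

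NP3 and NP2, the itch-associated classes, differed from each other in neuropilin 1. In NP3 relative to NP2, 3 of 27 tested members were higher and 4 lower (25.9% called), against 23.4% of all 13028 genes tested, 11.1% higher and 12.3% lower, a share near that of all genes. Nrp1 was lower in NP3 by log2 −4.80 ± 0.39 (SE, adjusted p = 4.06e-07), from 13 UMIs against 439, with levels of 0.0336 and 0.0103 against 0.556 and 0.67. Plxna4 (−1.27 ± 0.22) and Sema4b (−1.27 ± 0.39) were lower too, as was Plxna2, which lost its call under 3 alternatives. Sema4c (2.42 ± 0.42) and Sema3f (1.51 ± 0.30) were higher in NP3, and Plxnb1 was higher with 34 UMIs against 7. Plxnc1 (−0.14 ± 0.31, SE, adjusted p = 0.799) did not pass. Here 47.6% of all calls were higher, and 62.4% with library totals alone, which moved the median of all genes by 0.15 and the members' split to 3 higher and 2 lower. Among the pathway genes 8 of 41 were higher and 7 lower, with Mical1 higher by 1.41 ± 0.34 and Limk1 lower by log2 −1.63 ± 0.24.

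NP1 neurons had less of several members than the other non-peptidergic classes. In NP1 relative to the mean of NP2 and NP3, 0 of 27 tested members were higher and 9 lower (33.3% called), against 26.3% of all 13028 genes tested, 14.7% higher and 11.7% lower. Lower were Sema3f (−3.95 ± 0.31), Sema3c (−2.81 ± 0.27), Nrp1 (−2.25 ± 0.41), Plxna4 (−1.78 ± 0.18), Plxna2 (−1.74 ± 0.17), Sema6a, Sema4c, Sema4f (−1.21 ± 0.13) and Plxnb2. Sema3c stood at 0.032 and 0.0423 in NP1, 0.283 and 0.287 in NP2 and 0.293 and 0.272 in NP3, with no overlap between NP1 and the others. The difference in Nrp1 rests on NP2, since NP3 was about as low as NP1, and its call was lost when cells were taken from clusters. Those in Sema4c and Sema6a rest on NP3, since NP2 held 0.0542 and 0.0353 and 0.0174 and 0.00441 against 0.0482 and 0.0276 and 0.00603 and 0.00604 in NP1. Plxnc1 (0.20 ± 0.26, SE, adjusted p = 0.643) and Plxnd1 (0.27 ± 0.21, SE, adjusted p = 0.387) did not pass. At an unadjusted p under 0.05, 1 members were higher with edgeR, and DESeq2 called 0 higher. Here 55.7% of all calls were higher, and 39.6% with library totals alone, which moved the median of all genes by −0.14 and the members' split to 0 higher and 10 lower. Among pathway partners 9 of 41 were higher and 7 lower, with Mical1 lower by log2 −2.14 ± 0.32 and Limk2 by −1.63 ± 0.16.

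Large A-fibre neurons held a broad set of members. In NF relative to the mean of the C-fibre classes NP1, NP2, NP3, PEP-C and TH, 15 of 27 tested members were higher and 6 lower (77.8% called), against 43.8% of all 13028 genes tested, 25% higher and 18.9% lower. The median log2 difference was 0.93 for the members and 0.00 for all genes. Sema7a was higher by 4.06 ± 0.19 (SE, adjusted p = 1.35e-10), at 0.55 and 0.281 against 0.0528 and 0.0422, Sema5a by 3.62 ± 0.22 and Nrp2 by 3.05 ± 0.18. Plxna1 (2.68 ± 0.20), Sema3f (2.55 ± 0.19) and Plxna2 (1.11 ± 0.14) were higher too, and so were Sema3d, Sema4g and Sema6a, each at no more than 0.129 UMIs per 10000 in NF, although Sema6a was at a mean of 0.199 when cells were taken from clusters. Sema5b was also higher, with 52 UMIs in NF against 4, as were Sema3b and Sema4f by less. Nrp1, Plxna4 and Sema3e were called higher by 1.98 ± 0.19, 1.46 ± 0.12 and 2.13 ± 0.27, yet TH held more of each than NF, since the fit averages logs over the 5 classes. PEP-C held more Plxna4 than NF as well, at 1.3 and 0.804 against 0.949 and 0.719. TH also held more Sema4g than NF, at 0.0706 and 0.0799 against 0.0505 and 0.0544, NP3 more Sema4f, at 0.766 and 0.611 against 0.658 and 0.596, and PEP-C overlapped NF in Sema3b. Lower were Plxnd1 (−1.13 ± 0.26), Sema4d, Sema3c, Plxnb2 and, with calls that some alternatives ended, Plxnc1 (−0.79 ± 0.27, SE, adjusted p = 0.024) and Sema6d. TH held less Plxnd1 and Plxnb2 than NF, and NF held more Plxnc1 than TH and overlapped PEP-C. NP1 held less Sema3c than NF, at 0.032 and 0.0423 against 0.0353 and 0.063, and TH overlapped NF in Sema6d.
On the pathway list 15 of 41 were higher and 8 lower, among the former the kinase Pak1 (2.17 ± 0.16) and Cntn2 (1.51 ± 0.11), with Rras, a small GTPase that plexins act on, lower by log2 −2.29 ± 0.25.

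TH neurons combined a high ligand with a low receptor. In TH relative to the mean of NP1, NP2, NP3 and PEP-C, 8 of 27 tested members were higher and 12 lower (74.1% called), against 40.7% of all 13028 genes tested, 22.3% higher and 18.5% lower. Sema3e was higher by 5.52 ± 0.20 (SE, adjusted p = 1.55e-11), at 0.748 and 0.636 against 0.0165 and 0.0152, and Plxnd1 lower by log2 −5.15 ± 0.33 (SE, adjusted p = 4.51e-09), at 0.0185 and 0.019 against 0.777 and 0.545. Both libraries put the ligand above and the receptor below the other C-fibre classes. Nrp1 (3.23 ± 0.18), Plxna1 (2.75 ± 0.21), Plxna4 (2.62 ± 0.11), Nrp2 (2.60 ± 0.20), Plxna3 (1.83 ± 0.20), Sema7a (3.71 ± 0.22) and Sema4g were also higher, so 3 A-type plexins and both neuropilins were called in one direction. Those calls are against the mean of 4 classes. PEP-C held more Plxna3 than TH in both libraries, 0.158 and 0.139 against 0.128 and 0.124, and its values overlapped those of TH in Plxna4 and Nrp2. The remaining A-type plexin, Plxna2, was at 0.262 and 0.304 in TH. In both libraries that lay below NP2, NP3 and PEP-C and above NP1. Lower were Plxnc1 (−1.96 ± 0.29), Plxnb2, Plxnb1, Sema4c (−3.11 ± 0.45), Sema6c (−3.07 ± 0.33), Sema3f and 5 others by less, Sema4f among them. These calls too need not hold against each class. NP1 had a lower mean level of Sema3f than TH, and less Sema4f in both libraries, 0.26 and 0.21 against 0.37 and 0.37.
Of the pathway partners 8 of 41 were higher and 10 lower, with Dpysl5, a collapsin response mediator, higher by 1.60 ± 0.13 and Mical1 lower by log2 −5.66 ± 0.46.

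**Figure D5:**
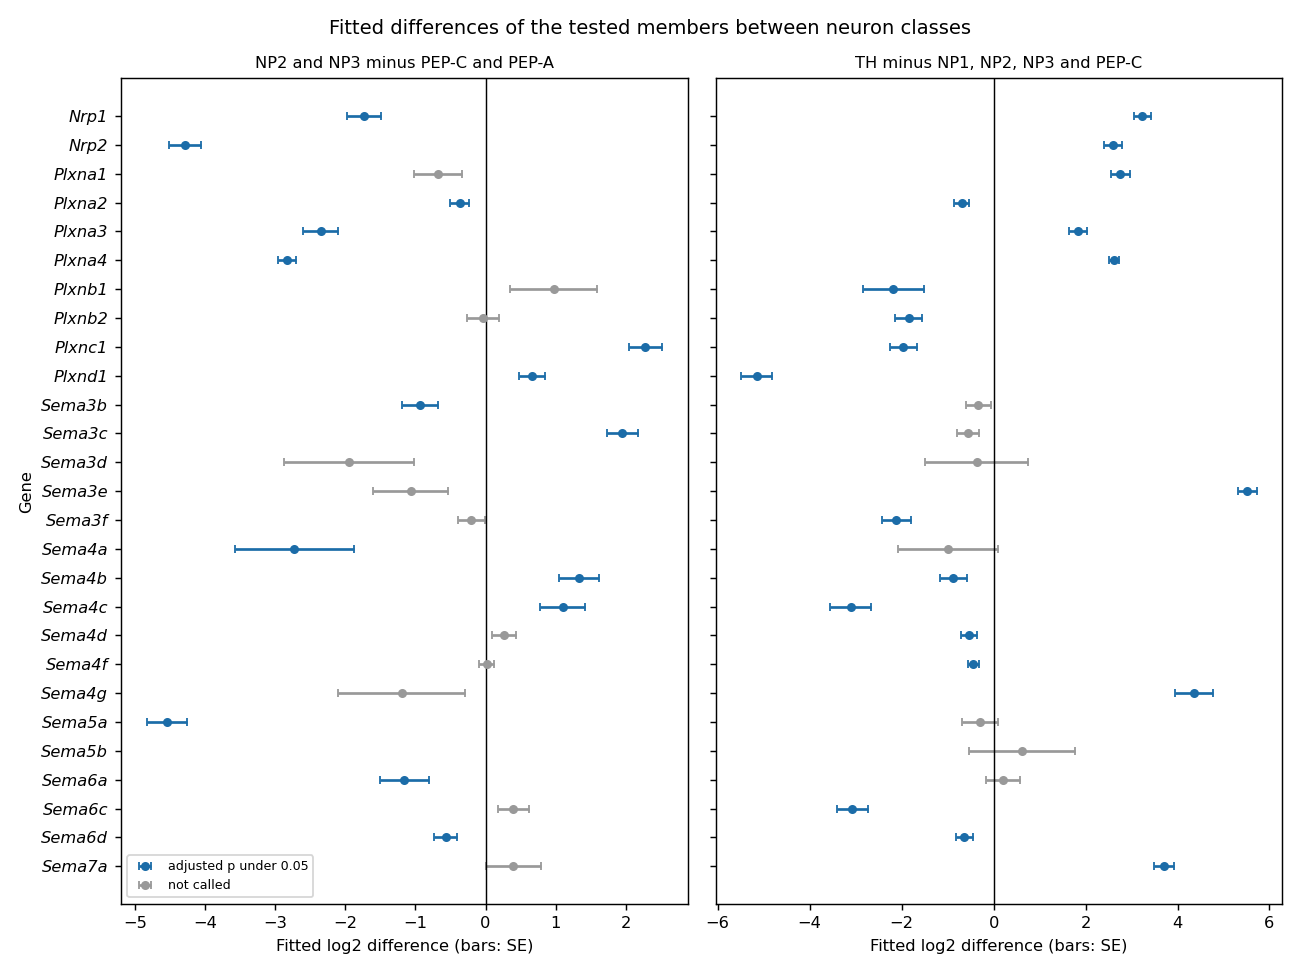
Fitted log2 differences of the 27 tested members with their standard errors, for NP2 and NP3 minus PEP-C and PEP-A (left) and TH minus NP1, NP2, NP3 and PEP-C (right), with calls at an adjusted p under 0.05 in blue. Sema5b, with 1 UMI on each side, is not drawn on the left. Plxnc1 lies at 2.28 on the left and −1.96 on the right, and Sema3e and Plxnd1 lie at opposite ends on the right.

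The peptidergic classes differed from each other in Sema5a and Nrp2. In PEP-A relative to PEP-C, 6 of 27 tested members were higher and 2 lower (29.6% called), against 22.1% of all 13028 genes tested, 12% higher and 10.1% lower. Sema5a was higher in PEP-A by 3.79 ± 0.24 (SE, adjusted p = 5.32e-08), at 1.35 and 0.87 against 0.0998 and 0.0718, and Nrp2 by 1.82 ± 0.21 (SE, adjusted p = 2.39e-05), at 1.42 and 1.31 against 0.45 and 0.384. Plxna2 was higher by 1.16 ± 0.18 and Plxna4 by 0.73 ± 0.15, the latter not past the threshold when the library term was dropped. Sema6a and Sema3d were higher at levels under 0.1, and Plxna3 and Sema4a were lower, a count of lower members that ran from 0 to 5 under the alternatives. Without the library term 5 members and 1689 genes were called in place of 8 and 2879. Here 54.5% of all calls were higher, and 43.0% with library totals alone, which moved the median of all genes by −0.11 and the members' split to 6 higher and 4 lower. On the pathway list 4 of 41 were higher and 4 lower, with Cntn2 higher by 1.07 ± 0.16.

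Cold-sensing neurons had little of either neuropilin. In TRPM8 relative to PEP-C, 2 of 27 tested members were higher and 8 lower (37% called), against 18.8% of all 13028 genes tested, 8.8% higher and 9.98% lower. Nrp2 was lower by log2 −4.00 ± 0.45 (SE, adjusted p = 1.57e-05), with 7 UMIs in TRPM8 against 1024 in PEP-C. Nrp1 was lower as well, with 7 UMIs in TRPM8, all of them in replicate 1, against 875 in PEP-C. Sema5a was lower with 3 UMIs against 211. Plxnc1 (−2.48 ± 0.47), Plxna2 (−1.87 ± 0.26) and Sema6d (−1.18 ± 0.27) were lower, the first at 0.206 and 0.0182 against 0.713 and 0.592, so that replicate 2 showed a far larger difference than replicate 1. Sema6c was higher by 1.27 ± 0.28 (SE, adjusted p = 0.0042) at 0.266 and 0.164 against 0.0894 and 0.0819, and Sema4g was higher at 0.113 and 0.0727 against 0.00718 and 0.00418. The calls of Plxna4 and Sema4f were lost under some alternatives. This class held 22 and 24 cells, and its own markers differed between libraries, with Trpm8 at 2.12 and 0.245 and Rxfp1 at 0.16 and 0.908, and the part of this in its levels was not tested. Among pathway partners 5 of 41 were higher and 8 lower, with Cntn2 higher by 1.46 ± 0.17 and Chl1 lower by log2 −2.54 ± 0.27.

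The other 13 genes never reached 0.5 UMIs per 10000 in both libraries in these classes. They are Plxna1, Plxna3, Plxnb1, Plxnb3, Sema3a, Sema3d, Sema3f, Sema4a, Sema4b, Sema4d, Sema4g, Sema5b and Sema6b. Sema3f was at 0.399 and 0.457 in endothelial cells and 0.315 and 0.221 in NF, and Sema6b at 0.282 and 0.546 in endothelial cells. Sema4b and Sema4a were highest in satellite glia at 0.394 and 0.323 and 0.186 and 0.188. Sema5b was found mainly in pericytes (0.242 and 0.194) and smooth muscle (0.0721 and 0.163). Sema3d was at most 0.035 in the 7 classes. In all, 29 of the 31 genes passed the filter on low counts in the fit of all classes and 27 in the fit of neuron classes, and those left out could not be tested.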

How the data were processed

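Both libraries of L4-5 dorsal root ganglia were made with 10x 3′ chemistry. The deposited matrices hold UMI counts per gene and barcode; Cell Ranger 5.0.1 and CASAVA 1.8 are named in the submitters' processing notes, with build mm10. Positions of genes are those of GENCODE mouse release 21, on the same build. A 3′ count depends on each gene's end, so levels of different genes are not on one scale.

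Barcodes with at least 500 genes and at most 20% mitochondrial UMIs were kept. Scrublet's own threshold marked 1 and 0 cells, so the highest-scoring 555 and 1020 cells were removed, a share that grows with the number of cells. Classes were gated on marker lists without the genes described, each score being taken relative to a threshold of its class. Neurons, glia and the other main classes needed a leading score at least 1.25 times the next. Each of the 8 neuron classes needed its own score at its threshold and the other scores below theirs. The PEP-A score was ignored for PEP-C and NP2, and the PEP-C score for TRPM8. PEP-A also needed a low PEP-C score. Barcodes occurring in both libraries numbered 24. Counts were summed per class and library and fitted with edgeR 4.0.16 (R 4.3.3; quasi-likelihood test, TMM, filterByExpr, class and library as terms, Benjamini-Hochberg adjustment over all genes, threshold 0.05), over 12583 genes in 13 classes (12 residual degrees of freedom) and 13028 genes in 8 neuron classes (7 degrees). The library enters as a block because classes of one library share it. On simulated data, 51% of 2-fold and 100% of 4-fold changes were recovered for the Schwann comparison over 10655 genes, and 100% of both for NP2 and NP3 against the peptidergic classes over 12240 genes. False calls were 3 of 154 and 13 of 213. Changed genes were drawn above a minimum level, all genes had the same spread, and classes were otherwise alike. These shares therefore need not hold for genes with few UMIs.

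Genes reaching 0.5 UMIs per 10000 in a class in both libraries are described one by one, and up to 4 pathway genes per direction could be named. The members and lists were chosen with earlier results of these data known. The alternatives were DESeq2 1.42.0, no filter, no library term, a stricter gate, Leiden clusters, no doublet removal, means over cells, each library alone and, chosen after seeing the data, library totals without TMM factors and neurons from 5000 UMIs.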

Additional observations from a re-analysis of the deposited data

How the results depend on the processing

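The alternatives were followed gene by gene for 123 called member differences, those above a minimum level on the higher side in both libraries. The fainter calls were not followed. Each of the 123 kept its sign under every alternative run, and 16 lost their call under at least 1. Dropping the library term, which pairs the classes of a library (no replicate block), moved the PEP-A against PEP-C counts from 2879 to 1689 genes and from 8 to 5 members; the cause was not tested. All other totals of called members or genes stayed within 1.5 times. Member counts in 1 direction moved further in 4 comparisons: PEP-A against PEP-C from 2 lower to between 0 and 5, NP3 against NP2 from 3 higher to as many as 5 and from 4 lower to as few as 2, TRPM8 against PEP-C from 2 higher to as many as 4 and from 8 lower to as few as 5, and NP1 against NP2 and NP3 from 0 higher to 1. Among the 123, calls were lost most often for Sema4f in TRPM8 against PEP-C (6 alternatives) and Sema6d in endothelium against neurons and glia (5). With either library alone no test was possible, and each of the 123 differences kept its direction. TRPM8 against PEP-C was not run under the stricter gate, which left too few cells. Of 144 levels recomputed, 20 moved by more than 1 SD over the libraries, among them Sema6a in NF, 0.106 to 0.199 with clusters. With 2 libraries the SD is itself imprecise, and a gene with few UMIs in a class is limited by counting.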

Other observations

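Fibroblasts and immune cells entered the fit but none of the comparisons, and their levels are given as UMIs per 10000 in replicates 1 and 2. Fibroblasts (177 and 291 cells) held Nrp2 at 2.21 and 1.98, Nrp1 at 1.27 and 1.05, Sema3b at 0.667 and 0.728, Sema3c at 0.418 and 0.405 and Sema3d at 0.454 and 0.295, which was low in the neuron, glial and vascular classes. The 6 non-myelinating Schwann markers (Scn7a, Col28a1, Matn2, Gfra3, Ngfr and Apod) summed higher in fibroblasts than in non-myelinating Schwann cells, 480 and 327 UMIs per 10000 against 63.0 and 72.5. Macrophages (228 and 323 cells) held Nrp1 at 2.2 and 1.67, Plxnb2 at 0.817 and 0.983, Sema4a at 0.567 and 0.608 and Sema4d at 0.452 and 0.255. Neutrophils (58 and 84 cells) held Plxnc1 at 1.09 and 0.803, above the 0.257 and 0.292 that the neuron-marker share would give, Sema4d at 0.949 and 0.353 and Sema4a at 0.492 and 0.482. B cells (49 and 70 cells) held Sema4b at 0.586 and 0.527 and Sema4d at 0.659 and 0.351, from 8 and 9 and 9 and 6 UMIs.

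The 931 and 1174 shallow barcodes with neuron markers, whose neuron-marker sum was 108% and 87.9% of that in neurons, held Plxna2 at 1.59 and 0.751 and Plxna4 at 1.42 and 0.518, against 0.565 and 0.427 and 0.763 and 0.626 in neurons, and Plxnc1 at 0.787 and 1.35 against 1.7 and 1.34. In replicate 1 the shallow barcodes were above neurons in both A-type plexins and below them in Plxnc1. In replicate 2 they were above in Plxna2, below in Plxna4 and alike in Plxnc1.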
